A study of Mus musculus with 51 samples.

Results

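The genes that write and erase DNA methylation were followed through male meiotic prophase by the active histone marks at their promoters. They were the DNA methyltransferases Dnmt1, Dnmt3a, Dnmt3b and Dnmt3l, the methyltransferase partner Uhrf1 and the TET enzymes Tet1, Tet2 and Tet3. These 8 genes were chosen by name from 20722 protein-coding genes of chromosomes 1 to 19. The question asked of each gene was whether a ChIP-Seq peak lay at one of its promoters, at which stage and with which antibody, and how wide that peak was. A gene had a peak in a library when a peak overlapped, by at least 1 bp, the window of 500 bp on either side of a protein-coding transcription start site (TSS; GENCODE M21, mm10).

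Every library came from wild-type adult C57Bl/6J male mice, with no mutation and no treatment. Nuclei of formaldehyde-fixed whole testis were sorted by flow cytometry into 5 successive stages of meiotic prophase I, which were leptonema and zygonema, early and late pachynema, and then diplonema. Leptonema was sorted with SCP3 and STRA8, and the other 4 stages with SCP3, H1t and SCP1, so leptonema and the other stages also differ in their sort. H3K4me3 was profiled with an EpiCypher antibody in experiments 1 and 2 of each stage (10 libraries). H3K4me2/3, measured with an Abcam antibody, had 1 library per stage from experiment 2, and H3K9ac had 1 library per stage from experiment 1. The sorted nuclei held some nuclei of other stages, and fewer nuclei carrying a mark and less mark per nucleus cannot be told apart.

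H3K4me3 marks the start sites of active and poised genes, H3K9ac is found at active ones, and the Abcam antibody reads H3K4me2 along with H3K4me3. DNMT1 copies methylation onto the new strand after replication, guided by UHRF1, which binds hemimethylated DNA. DNMT3A and DNMT3B set methylation at new sites, with the help of DNMT3L, which has no catalytic activity of its own, and TET enzymes oxidize 5-methylcytosine on the way to its removal. In the male germ line new methylation, imprints included, is set before birth in prospermatogonia, and DNMT3L acts there.

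The 20 peak lists held 238528 peaks, and between 4883 and 15699 per H3K4me3 library. H3K9ac lists ranged from 516 peaks in diplonema to 16003 in zygonema. Of the marker genes, Sycp3 had an H3K4me3 peak in 10 of 10 libraries, Stra8 in 2 of 2 leptonema libraries and in no other, and Piwil1 in 6 of 6 libraries from early pachynema on but in 1 of the 4 earlier ones. Hist1h1t, which encodes H1t, went the other way, called in a leptonema library and a zygonema library, 1 of each, but in 0 of the 6 later ones. Any H3K4me3 peak was found for 4 of 4 meiotic prophase genes, with Dmc1 called in 4 of 4 leptonema and zygonema libraries and 0 of 6 later ones, and for 3 of 3 genes of pachynema onwards. Of the markers of other cells, 0 of 4 spermatid genes, 0 of 1 blood cell gene (Ptprc), 1 of 5 spermatogonial genes (Kit, 1 leptonema library), 1 of 4 Leydig cell genes (Insl3, 1 diplonema library) and 3 of 4 Sertoli cell genes had any H3K4me3 peak. The Sertoli cell peaks were those of Sox9 and Gata4 in 1 leptonema library each and of Wt1 in 1 leptonema and 1 zygonema library. With H3K4me2/3, 4 of 5 spermatogonial genes had a peak in at least 2 of 5 lists (Gfra1, Zbtb16, Kit and Sall4), 3 of 4 Sertoli cell genes had a peak, with Gata4 in 5 of 5 lists, and H3K9ac peaks lay at Gfra1 and Zbtb16 in 1 list each. The H3K4me3 peaks at Sertoli cell markers were in the stages in which the methylation genes were called most often, and the part of other cells in the results was not tested.

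The 8 genes have 45 distinct protein-coding TSSs, which fall into 25 separate promoters once overlapping windows are merged. H3K4me3 peaks lay at 9 of the 25, the same 9 that had an H3K4me2/3 peak, and H3K9ac peaks at 7. The remaining 16 promoters had no peak in any of the 20 lists. Sequences of 8 promoters are shown, 6 with peaks and 2 without, because they show the difference in CG content between the 2 kinds, within Dnmt1 and between genes. Each runs 5′ to 3′ on the gene's own strand, from 250 bases before the TSS to 50 bases from it, in the RefSeq GRCm38.p6 genome (mm10), with CG dinucleotides in capitals.

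Dnmt1 main promoter (chr9:20952930-20953229, minus strand): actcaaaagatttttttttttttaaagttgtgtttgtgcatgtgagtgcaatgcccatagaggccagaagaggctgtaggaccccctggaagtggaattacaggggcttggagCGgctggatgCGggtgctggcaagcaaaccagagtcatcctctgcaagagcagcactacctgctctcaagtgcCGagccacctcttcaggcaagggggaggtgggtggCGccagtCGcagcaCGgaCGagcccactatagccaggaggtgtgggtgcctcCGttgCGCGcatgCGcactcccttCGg
Dnmt1 upstream promoter (chr9:20959839-20960138, minus strand): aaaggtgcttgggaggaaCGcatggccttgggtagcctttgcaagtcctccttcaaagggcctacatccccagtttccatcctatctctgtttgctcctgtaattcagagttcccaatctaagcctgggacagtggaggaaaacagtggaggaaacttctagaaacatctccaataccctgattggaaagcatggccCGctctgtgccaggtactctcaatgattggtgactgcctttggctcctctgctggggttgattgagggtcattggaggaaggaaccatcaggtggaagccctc
Dnmt3a upstream promoter (chr12:3806780-3807079, plus strand): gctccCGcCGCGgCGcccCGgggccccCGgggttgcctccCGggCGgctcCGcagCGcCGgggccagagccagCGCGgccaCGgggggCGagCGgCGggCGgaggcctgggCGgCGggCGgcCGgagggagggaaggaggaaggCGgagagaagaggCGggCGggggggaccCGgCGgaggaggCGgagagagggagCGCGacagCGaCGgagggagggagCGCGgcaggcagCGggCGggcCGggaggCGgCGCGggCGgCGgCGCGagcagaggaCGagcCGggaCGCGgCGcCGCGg
Dnmt3a promoter of the short protein (chr12:3891494-3891793, plus strand): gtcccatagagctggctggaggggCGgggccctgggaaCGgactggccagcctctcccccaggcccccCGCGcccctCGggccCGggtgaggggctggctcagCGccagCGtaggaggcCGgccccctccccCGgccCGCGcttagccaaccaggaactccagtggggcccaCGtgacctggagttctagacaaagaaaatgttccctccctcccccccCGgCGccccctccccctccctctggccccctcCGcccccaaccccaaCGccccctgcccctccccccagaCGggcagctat
Dnmt3l middle promoter (chr10:78049592-78049891, plus strand): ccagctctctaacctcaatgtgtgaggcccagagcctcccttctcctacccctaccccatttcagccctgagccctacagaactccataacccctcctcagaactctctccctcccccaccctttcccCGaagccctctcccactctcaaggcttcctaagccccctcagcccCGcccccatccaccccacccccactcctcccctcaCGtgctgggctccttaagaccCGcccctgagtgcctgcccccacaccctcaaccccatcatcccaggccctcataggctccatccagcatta
Uhrf1 promoter (chr17:56303071-56303370, plus strand): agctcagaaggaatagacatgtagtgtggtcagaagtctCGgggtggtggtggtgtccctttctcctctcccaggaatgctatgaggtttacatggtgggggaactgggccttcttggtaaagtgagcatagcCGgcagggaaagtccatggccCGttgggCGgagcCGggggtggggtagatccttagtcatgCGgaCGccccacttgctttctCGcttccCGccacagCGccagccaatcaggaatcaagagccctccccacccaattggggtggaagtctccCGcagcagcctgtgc
Tet1 promoter with peaks (chr10:62887275-62887574, minus strand): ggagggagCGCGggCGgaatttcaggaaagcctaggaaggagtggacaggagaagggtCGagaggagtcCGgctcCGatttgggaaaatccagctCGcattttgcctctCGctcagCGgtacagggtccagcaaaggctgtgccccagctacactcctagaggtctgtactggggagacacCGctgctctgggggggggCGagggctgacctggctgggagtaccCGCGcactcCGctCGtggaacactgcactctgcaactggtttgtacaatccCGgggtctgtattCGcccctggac
Tet3 promoter of the longest protein (chr6:83456343-83456642, minus strand): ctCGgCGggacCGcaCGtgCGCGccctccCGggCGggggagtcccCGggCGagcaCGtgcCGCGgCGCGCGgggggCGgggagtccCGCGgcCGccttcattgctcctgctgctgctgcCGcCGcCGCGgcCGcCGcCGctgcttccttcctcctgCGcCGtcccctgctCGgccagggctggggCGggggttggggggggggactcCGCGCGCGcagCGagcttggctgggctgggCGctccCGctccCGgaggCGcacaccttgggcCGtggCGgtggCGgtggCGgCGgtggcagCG

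The upstream promoter of Dnmt1 and the middle promoter of Dnmt3l had no peak in any list, and the other 6 had peaks in their TSS windows. The printed bases surround a TSS and are not the marked stretch itself. Those of Uhrf1 and Tet1 overlapped no H3K4me3 peak. The 300 bases held 51 CG dinucleotides at the upstream promoter of Dnmt3a and 46 at that of Tet3, compared with 2 at the upstream promoter of Dnmt1 and 4 at Dnmt3l. Within 500 bp on either side of the TSS, the 9 promoters with an H3K4me3 peak held a median of 59 CG dinucleotides, and between 45 and 158. The 16 without held a median of 11, and between 0 and 32, so the CG counts of the 2 kinds of member promoter did not overlap. Over all protein-coding genes, taken at the TSS of the longest protein, the median was 76 CG dinucleotides for genes with a peak in all 10 H3K4me3 libraries and 60 for genes with a peak in 1 to 9. It was 13 for genes with no H3K4me3 peak, so the order of the members was also that of genes at large. For all genes a call counted at any protein-coding TSS of the gene, whereas each member promoter had its own calls.

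**Figure D1:**
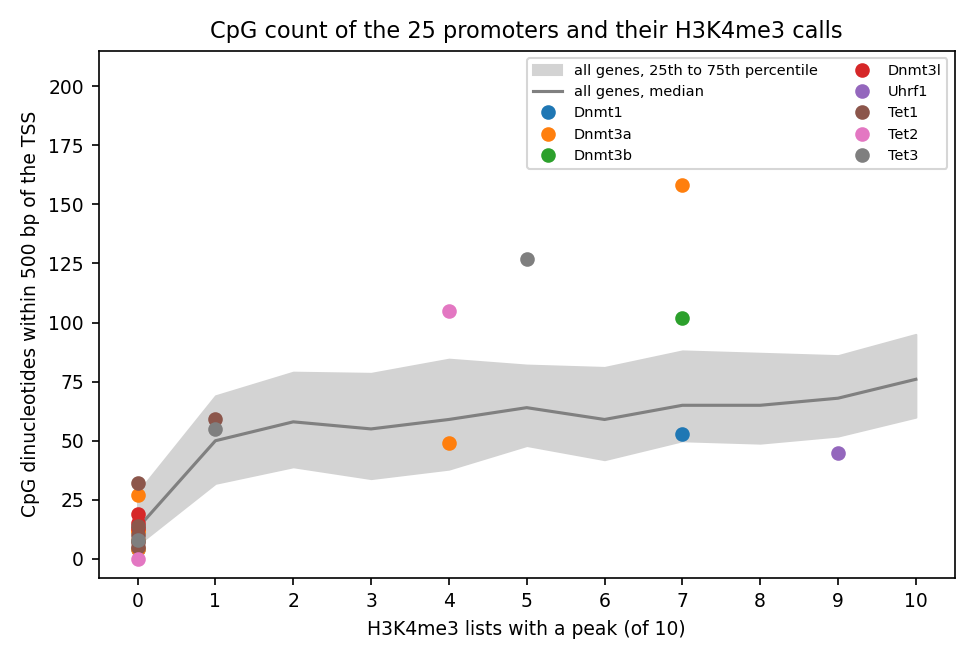
CG dinucleotides within 500 bp of the TSS (y axis, count) against the number of H3K4me3 lists with a peak (x axis, of 10) for the 25 promoters, 1 point each, coloured by gene. The grey line and band give the median and the 25th to 75th percentile over all protein-coding genes. For these, CG was counted at the TSS of the longest protein and calls at any protein-coding TSS of the gene. Promoters with no peak sit between 0 and 32, and promoters with a peak between 45 and 158.

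Short motifs were searched in the same 300 bases on both strands. The GC box GGGCGG was found in 11 of the 25 member promoters, and in 45.7% of all 20713 promoters searched. The latter were taken at the TSS of the longest protein of each gene, whereas the 25 include promoters with short annotated coding sequences. Of the 11, 8 were among the 9 with an H3K4me3 peak, a share that was not compared with other promoters with a peak. The main promoter of Dnmt1 was the one of the 9 without a GC box. The CCAAT box (CCAAT) was found in 7 of the 25, among them Uhrf1 with 3 copies, and in 37.7% of all promoters. CACGTG, the E box, was found in 3 of the 25 and in 7.72% of all. The E2F letters TTTGGCGC or TTTCCCGC and the CRE letters TGACGTCA were in 0 of the 25, and in 434 and 493 of the 20713 promoters. GC box letters are themselves rich in CG, so this count overlaps with the CG count above.

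With H3K4me3, peaks in both libraries of a stage were found for 6 of the 8 genes in leptonema, 4 in zygonema and 1 in each later stage. The 6 in leptonema were Dnmt1, Dnmt3a, Dnmt3b, Uhrf1, Tet2 and Tet3, and the 4 in zygonema were the same genes without Tet2 and Tet3. With lists cut to the same number of their widest peaks the counts from leptonema to diplonema were 4, 0, 1, 1 and 0. Zygonema thus no longer stood above the later stages, but shares over all genes with cut lists are not at hand. Nothing particular to these genes is drawn from the cut counts. In the uncut lists Uhrf1 was the gene called in both libraries of early and of late pachynema, and Dnmt3a the gene called in both libraries of diplonema. Among all 20722 genes, again with uncut lists, 38.1% had a peak in both leptonema libraries and 32.4% in both of zygonema. For the later stages this share was 24.9% (early pachynema), 25.8% (late pachynema) and 28.6% (diplonema). Among all genes 18.0% had a peak in all 10 libraries and 45.9% in none, and of the 8 methylation genes 0 had a peak in all 10 and 1, Dnmt3l, in none.

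The lower counts after zygonema were not alike in the 2 experiments. Counted from leptonema to diplonema, 6, 5, 3, 1 and 1 of the 8 genes had a peak in experiment 1. Experiment 2 gave 7, 4, 1, 6 and 6 in the same order. Of all genes, 38.7%, 36.2%, 33.6%, 26.4% and 28.7% had a peak in experiment 1. In experiment 2 these shares were 46.3%, 35.3%, 25.2%, 39.7% and 46.0%, so genes at large also had their lowest share in early pachynema there. Thus in late pachynema and diplonema the low counts of genes called in both libraries rested on experiment 1. List lengths moved the same way. The late pachynema lists held 5189 peaks in experiment 1 and 9124 in experiment 2, and the diplonema lists 6645 and 12071. The part of list length in these calls was not tested. For late pachynema and diplonema the difference between the experiments was also seen over all genes.

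**Figure D2:**
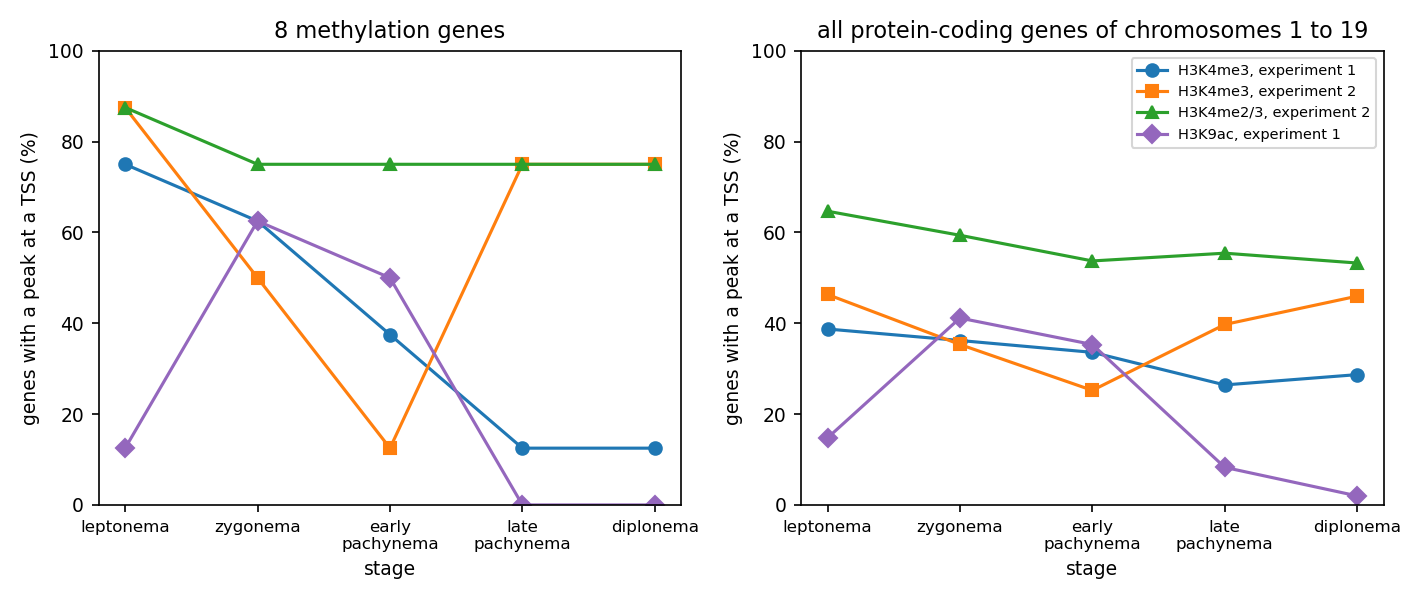
Share of genes with a peak at a TSS (y axis, %) by stage (x axis) for each antibody and experiment, for the 8 methylation genes (left) and all protein-coding genes of chromosomes 1 to 19 (right). In experiment 2 the H3K4me3 share of the 8 genes was lowest in early pachynema (1 of 8) and 6 of 8 in late pachynema and diplonema, whereas in experiment 1 it ended at 1 of 8. Over all genes the share in experiment 2 was also lowest in early pachynema (25.2%).

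Widths were compared as the percentile of a peak's width within its own list, with 0 where a gene had no peak, since lists differ in length and in their widths. Differences were tested over the 11215 genes with an H3K4me3 peak in at least 1 library, by exact permutation tests over the 10 libraries with Benjamini-Hochberg adjustment over all of these genes. A test of any difference between the 5 stages called 0 of 11215 genes (0%), with 1286 at an unadjusted p under 0.05. A two-sided test of leptonema and zygonema (4 libraries) against the 3 later stages (6 libraries) called 0% of genes as higher and 0% as lower in the earlier stages, with 2274 at an unadjusted p under 0.05. The smallest p that the second test can give is 0.00476, which 629 genes reached. At least 1069 genes would have to reach it for that p to pass by itself, and otherwise still more genes at somewhat larger p. For the test of any stage difference 15 genes reached the smallest p and 238 would have been needed for it to pass by itself. A median gene was 4.37 percentile points higher in leptonema and zygonema, and groups did not overlap for 5.37% of genes in that direction and for 3.02% in the other. None of the 8 methylation genes had groups that did not overlap.

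**Figure D3:**
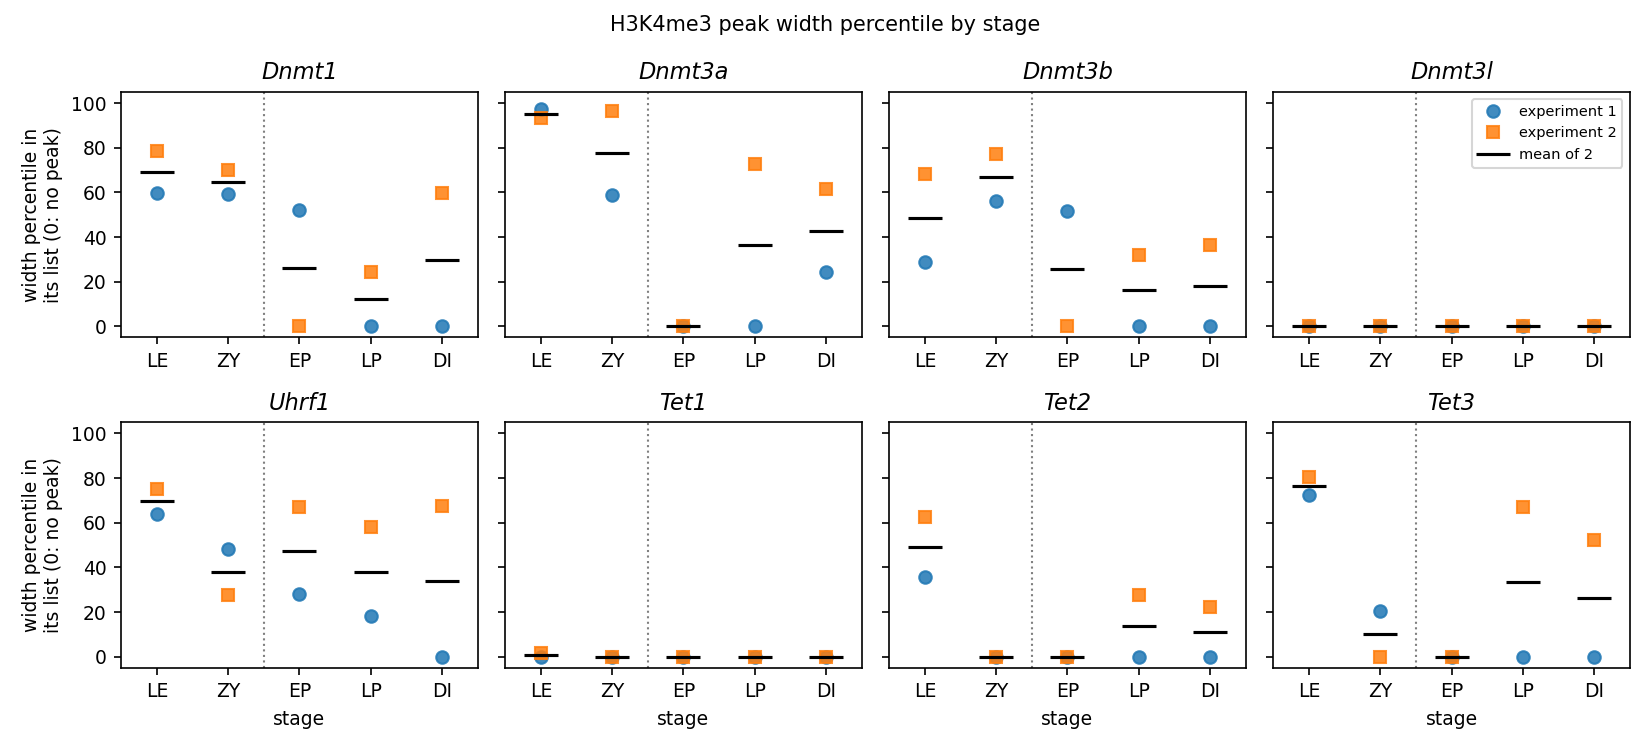
Width percentile of the widest H3K4me3 peak at each gene (y axis, percentile within its list, 0 where there was no peak) by stage (x axis: LE leptonema, ZY zygonema, EP early pachynema, LP late pachynema, DI diplonema). Circles are experiment 1, squares experiment 2 and bars the mean of the 2 libraries. Dnmt1 and Dnmt3a lie at or above the 58.9 percentile in all 4 libraries left of the dotted line, whereas Dnmt3b is at the 28.9 percentile in leptonema of experiment 1. In late pachynema and diplonema experiment 2 lies above experiment 1 wherever either has a peak.

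Among the methyltransferases that set new methylation, Dnmt3a (chromosome 12, plus strand) had the widest H3K4me3 peaks in leptonema. At its upstream promoter, with 4 TSSs from 3806527 to 3807160 that include the start of the full-length protein of 908 residues, the leptonema peaks spanned 1632 bp in experiment 1 and 1765 bp in experiment 2. These were the 97.2 and the 93.4 percentile of their lists. In zygonema the widths were 766 and 1758 bp. Neither early pachynema library had a peak, and late pachynema had none in experiment 1 and 878 bp in experiment 2. Diplonema peaks spanned 410 and 978 bp. Leptonema and zygonema libraries were thus above the later ones except that zygonema in experiment 1, at the 58.9 percentile, lay below late pachynema and diplonema in experiment 2. The mean percentile was 86.5 ± 18.4 (SD, n = 4) in leptonema and zygonema and 26.4 ± 33.1 (SD, n = 6) later. This difference of 60.1 points had p = 0.0190 by the exact permutation test and an adjusted p = 0.156, so it was not called.

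Within each experiment, both early libraries of Dnmt3a were above all 3 later ones. The difference was 70.0 points in experiment 1 and 50.2 points in experiment 2, with 2 libraries against 3. How many of all genes show that order is not at hand, so nothing particular to Dnmt3a is drawn from it. Of all 11215 genes, 52.0% had a higher early mean in experiment 1 and 55.9% in experiment 2. All 7 H3K4me3 peaks began between 260 and 608 bp downstream of the most upstream TSS, and the widest reached 2089 bp downstream of it.

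A further Dnmt3a promoter, with TSSs at 3891728 and 3891744, starts transcripts for a protein of 689 residues that lacks the amino-terminal part and is known as DNMT3A2, the form found in embryonic and germ cells. Its H3K4me3 peaks were narrower than those of the upstream promoter in the same libraries, with 171 bp in leptonema of experiment 1, 706 bp in leptonema of experiment 2, 184 bp in zygonema of experiment 1 and 168 bp in diplonema of experiment 2. The other 6 libraries had none there. The 706 bp peak spanned the TSS, and the other 3 ended upstream of it, at -101, -168 and -35 bp. The other 5 Dnmt3a promoters, all with annotated coding sequences of at most 183 residues, had no peak in any of the 20 lists. Whether those coding sequences are complete was not checked.

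Dnmt3b (chromosome 2, plus strand, TSSs 153649450 to 153649617) had 1 promoter with 102 CG dinucleotides. H3K4me3 peaks in experiment 1 spanned 403 bp in leptonema, 737 bp in zygonema and 505 bp in early pachynema, with none in late pachynema or diplonema. In experiment 2 they spanned 933, 867, 399 and 559 bp in leptonema, zygonema, late pachynema and diplonema, with none in early pachynema. Each experiment therefore lacked a peak at different later stages. The mean percentile was 57.7 ± 21.1 (SD, n = 4) in leptonema and zygonema and 20.0 ± 22.9 (SD, n = 6) later, a difference of 37.7 points. By the exact permutation test p was 0.0381 and the adjusted p 0.208. With lists cut to the same number of their widest peaks the difference was 9.92 points. In experiment 1 the early libraries overlapped with early pachynema, which lay at the 51.6 percentile against 28.9 for leptonema.

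Dnmt3l, the cofactor without catalytic activity (chromosome 10, plus strand), has 3 promoters, at 78042287, at 78049842 to 78049959 and at 78055335. None of the 20 lists had a peak at any of them. These promoters held 15, 19 and 13 CG dinucleotides within 500 bp. Without a call, a mark below the threshold of the peak caller remains possible.

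Dnmt1, the maintenance methyltransferase (chromosome 9, minus strand), had its peaks at the promoter with TSSs from 20952605 to 20952979. H3K4me3 peaks spanned 686 and 1139 bp in leptonema and 769 and 759 bp in zygonema, in experiments 1 and 2. Later, experiment 1 had a peak of 512 bp in early pachynema and no others, and experiment 2 had peaks of 324 bp in late pachynema and 946 bp in diplonema. The diplonema peak of experiment 2, at the 59.9 percentile, was the later value that reached the lowest early ones. The mean percentile was 66.9 ± 9.13 (SD, n = 4) in leptonema and zygonema and 22.7 ± 27.6 (SD, n = 6) later, a difference of 44.2 points, or 17.7 points with lists of equal length. The 44.2 points had p = 0.0190 and an adjusted p = 0.156 by the exact permutation test. Within experiments the early libraries lay above the later ones, by 42.1 points in experiment 1 and 46.2 points in experiment 2. The share of all genes with that order is not at hand here either. A promoter further upstream, at 20959888, starts a protein of 1501 residues rather than 1620 and had no peak in any list.

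Uhrf1, which brings DNMT1 to replicated DNA (chromosome 17, plus strand), has 5 TSSs between 56303321 and 56304407 and was called most often, in 17 of the 20 lists. Its H3K4me3 peaks spanned 727 and 1063 bp in leptonema, 654 and 361 bp in zygonema, 334 and 517 bp in early pachynema and 229 and 669 bp in late pachynema, in experiments 1 and 2. Diplonema had no peak in experiment 1 and one of 1089 bp in experiment 2, the widest of the 9. Both leptonema libraries, at the 63.9 and 75.3 percentiles, lay above both of zygonema and both of late pachynema, and overlapped with early pachynema and diplonema. The mean percentile was 53.8 ± 20.7 (SD, n = 4) early and 39.7 ± 28.4 (SD, n = 6) later, and the exact permutation test gave p = 0.419 and an adjusted p = 0.655. The experiments differed in direction, with the early stages higher by 40.7 points in experiment 1 and lower in experiment 2 (-12.7 points). With lists cut to equal numbers of peaks the pooled difference turned to -4.63 points. It ranged from 6.07 points without diplonema of experiment 1 and 6.83 points without leptonema of experiment 2 to 22.7 points without zygonema of experiment 2. All 9 H3K4me3 peaks began downstream of the most upstream TSS, by between 161 and 940 bp, and each covered the last TSS, at 56304407.

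Of the erasers, Tet3 (chromosome 6, minus strand) had the most peaks. At the promoter with its TSS at 83456392, which starts the longest protein of 1803 residues, leptonema peaks spanned 837 bp in experiment 1 and 1184 bp in experiment 2. In zygonema there was a peak of 374 bp in experiment 1 and none in experiment 2, and early pachynema had none. Late pachynema and diplonema had peaks of 784 and 819 bp in experiment 2 and none in experiment 1. Leptonema libraries were thus the highest, and the other stages each held at least 1 library without a peak. The 5 peaks spanned the TSS, with upstream ends between -818 and -292 bp from it. The mean percentile was 43.4 ± 39.4 (SD, n = 4) in leptonema and zygonema and 19.9 ± 31.2 (SD, n = 6) later, with p = 0.262 and an adjusted p = 0.562 by the exact permutation test. The difference was 46.5 points in experiment 1 and 0.443 points in experiment 2. It was 13.7 points without leptonema of experiment 1, 11.1 points without leptonema of experiment 2 and 38.0 points without zygonema of experiment 2. A promoter downstream at 83441675, for a protein of 1668 residues, had 1 H3K4me3 peak, of 226 bp in leptonema of experiment 2. The start of B230319C09Rik on the opposite strand lies in the same window, so that peak cannot be given to one of the 2 genes.

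Tet2 (chromosome 3, minus strand) has its main TSSs between 133544368 and 133545139. Its H3K4me3 peaks spanned 462 and 847 bp in leptonema, and 353 bp in late pachynema and 363 bp in diplonema, both in experiment 2. Both zygonema and both early pachynema libraries had none. With 4 of 10 libraries called, the mean percentile was 24.6 ± 30.5 (SD, n = 4) early and 8.27 ± 12.9 (SD, n = 6) later (exact permutation test, p = 0.233, adjusted p = 0.520). The difference of 16.4 points was 3.70 points without leptonema of experiment 2, and 24.6 points without either zygonema library. The start of the antisense gene Gm42567 lies in this window.

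Tet1 (chromosome 10, minus strand) has 6 promoters over the gene, and 5 of them had no peak in any list, those of the proteins of 2007 and 2039 residues included. The promoter with TSSs at 62887324 and 62887512, with annotated coding sequences of 47 residues, had 1 H3K4me3 peak, of 144 bp in leptonema of experiment 2, at the 1.47 percentile of its list. It held 59 CG dinucleotides, compared with 32 at the promoter of the protein of 2007 residues. Whether the coding sequences of 47 residues are complete was not checked, so the protein made from that promoter is not known here.

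**Figure D4:**
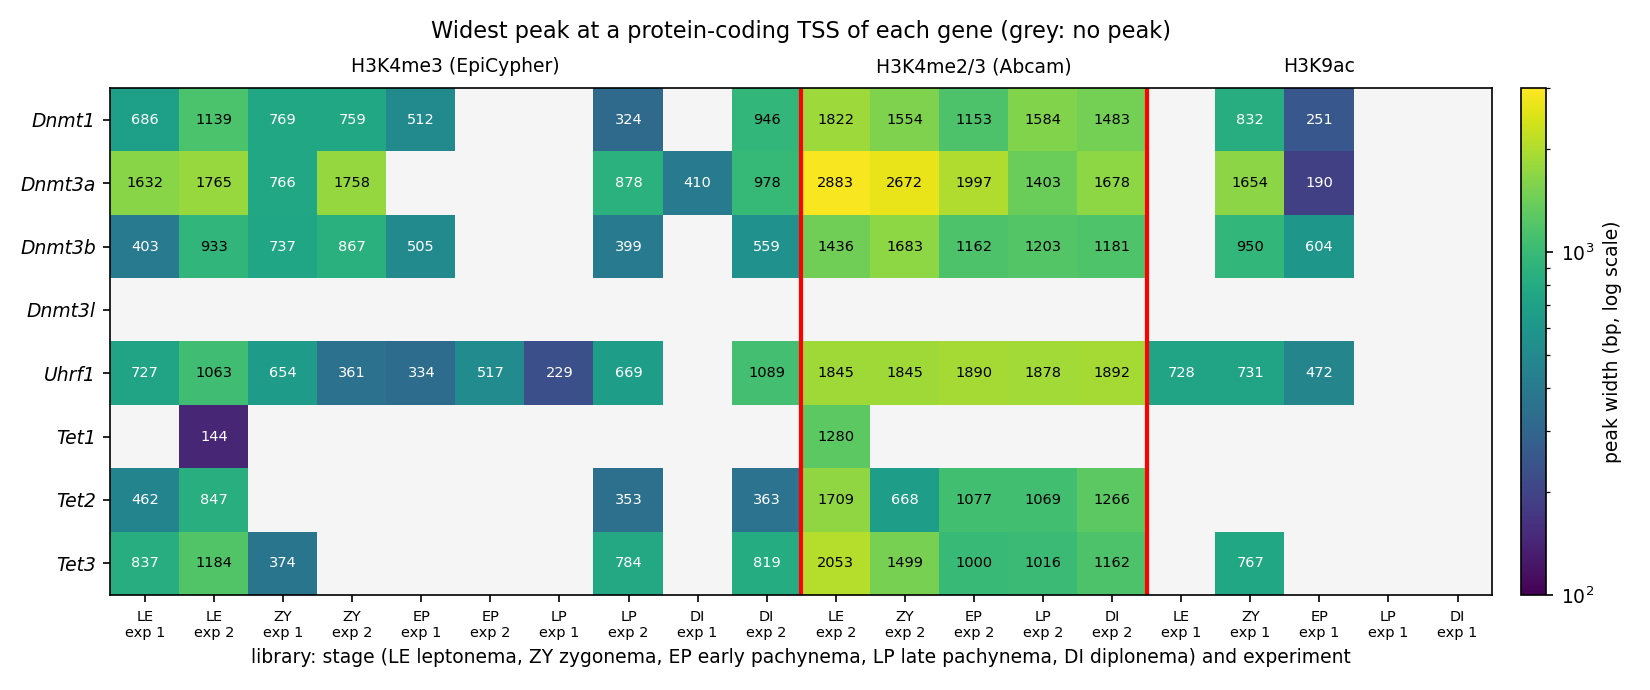
Width of the widest peak at a protein-coding TSS of each gene in every library (colour, bp, log scale, with the width written in each cell), with genes in rows and libraries in columns. Pale cells had no peak. Dnmt3l has no peak in any list, and in the H3K4me2/3 lists the other genes but Tet1 have a peak in every stage.

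The H3K4me2/3 antibody gave wider peaks at more stages. Of the 8 genes, 7 had a peak in leptonema and 6 in each of the 4 later stages, compared with 64.7%, 59.4%, 53.7%, 55.4% and 53.3% of all genes. Dnmt1, Dnmt3a, Dnmt3b, Uhrf1, Tet2 and Tet3 were called in 5 of 5 libraries, Tet1 in leptonema alone and Dnmt3l in none. With 1 library per stage there was no replicate and no test.

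Dnmt3a was widest in leptonema and zygonema, with 2883, 2672, 1997, 1403 and 1678 bp from leptonema to diplonema, which are the 97.9, 98.0, 93.0, 59.5 and 62.3 percentiles of their lists. Tet3 spanned 2053, 1499, 1000, 1016 and 1162 bp, again widest in leptonema. Dnmt1 spanned 1822, 1554, 1153, 1584 and 1483 bp in the same order. Uhrf1 spanned between 1845 and 1892 bp in all 5 stages, while its percentiles were 88.1, 90.7, 91.2, 73.3 and 67.9, as the median peak was 1121 bp wide in the late pachynema list and 1294 bp in the diplonema list, against 836 to 870 bp in the earlier ones. Dnmt3b ranged from 1162 to 1683 bp with its highest value in zygonema, and Tet2 from 668 bp in zygonema to 1709 bp in leptonema. Tet1 had 1280 bp in leptonema. At the Dnmt3a promoter of the short protein the widths were 1404, 1340, 849, 1210 and 815 bp, so this promoter had an H3K4me2/3 peak at every stage although H3K4me3 was called in 4 of 10 libraries. The downstream Tet3 promoter, whose window also holds the start of B230319C09Rik, had an H3K4me2/3 peak in 4 of 5 lists.

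Set beside H3K4me3 of the same stage in experiment 2, the 40 pairs of gene and stage included 24 in which both antibodies had a peak, 7 with H3K4me2/3 alone and 0 with H3K4me3 alone. In all 24 the H3K4me2/3 peak was the wider, by a median ratio of 1.84 and between 1.30 and 8.89. Over all genes called by both antibodies, H3K4me2/3 was the wider in 98.7% of pairs, with a median ratio of 2.40. For early pachynema the study lists different sort purities for the libraries of the 2 antibodies in experiment 2, so these may not come from the same sort.

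**Figure D5:**
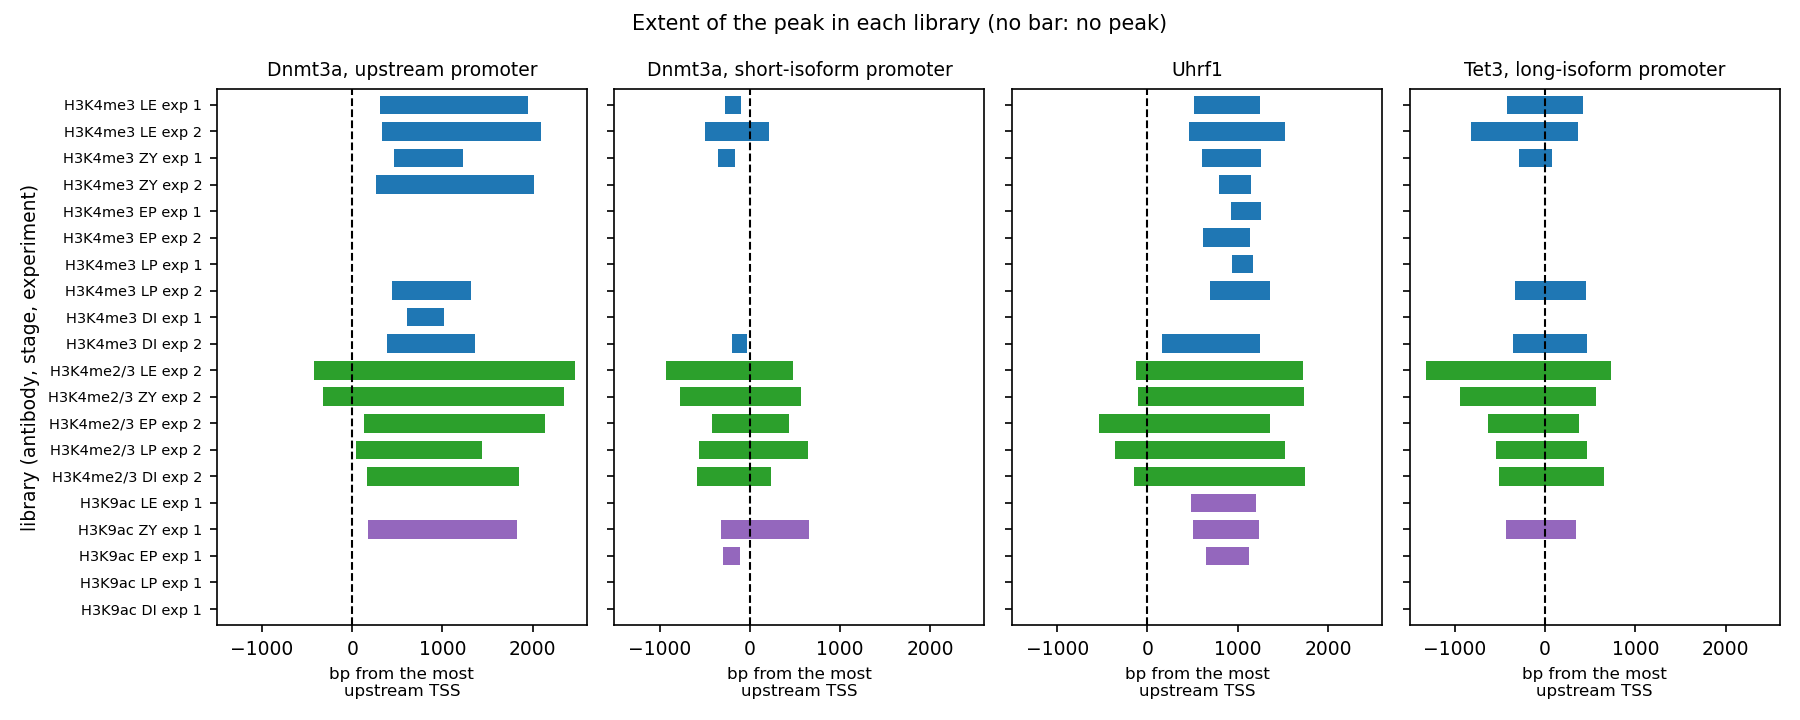
Extent of the peak (bars; x axis, bp from the most upstream TSS of the promoter, dashed line at 0) in each of the 20 libraries (rows; stages as LE, ZY, EP, LP and DI) at the 2 Dnmt3a promoters, Uhrf1 and Tet3. H3K4me3 is blue, H3K4me2/3 green and H3K9ac purple. H3K4me3 peaks of upstream Dnmt3a and of Uhrf1 begin downstream of the first TSS, and those of Tet3 span it.

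From leptonema to diplonema, H3K9ac peaks were found for 1, 5, 4, 0 and 0 of the 8 genes. Over all genes the shares were 14.8%, 41.1%, 35.3%, 8.27% and 1.99%, so the calls at the methylation genes followed the same order of stages as genes at large. Uhrf1 was the gene called in leptonema, with 728 bp, and it spanned 731 bp in zygonema and 472 bp in early pachynema. In zygonema Dnmt3a spanned 1654 bp, at the 92.6 percentile of its list, Dnmt3b 950 bp, Dnmt1 832 bp and Tet3 767 bp. The Dnmt3a promoter of the short protein also had a zygonema peak, of 985 bp, and the downstream Tet3 promoter one of 739 bp. In early pachynema Dnmt3b spanned 604 bp and Dnmt1 251 bp. Dnmt3a then had a peak of 190 bp at the promoter of the short protein and none at its upstream promoter. Tet1, Tet2 and Dnmt3l had no H3K9ac peak in 5 libraries.

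Beside H3K4me3 of experiment 1, 9 of the 40 pairs of gene and stage had both marks, 7 had H3K4me3 alone and 1, Dnmt3a in early pachynema, had H3K9ac alone. H3K9ac was the wider in 8 of the 9, with a median ratio of 1.20 and a range from 0.490 to 2.16. Over all genes with both marks it was the wider in 60.5% of pairs, with a median ratio of 1.17. There was again 1 library per stage and no test.

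Genes that work with these enzymes were taken from lists and counted in the same way. Of 15 partners of methylation, 11 had an H3K4me3 peak in at least 1 library, and 9, 9, 6, 4 and 5 had peaks in both libraries from leptonema to diplonema. Of 8 readers of methylated DNA, 5 had a peak, and 5, 4, 3, 3 and 3 were called in both libraries. Of 13 genes of demethylation and base excision on chromosomes 1 to 19, 9 had a peak and 4, 3, 2, 2 and 3 were called in both. In these lists 0 genes passed either test after adjustment, and the median differences between leptonema with zygonema and the later stages were 1.22, 5.19 and 12.1 percentile points. For the 7 methylation genes with an H3K4me3 peak it was 23.5 points, and for all 11215 genes 4.37 points, all by the same measure. Marker lists also reached such values, with 21.9 points for the 3 Sertoli cell genes with a peak and 16.6 points for the 4 meiotic prophase genes. The 3 Sertoli cell genes, like Tet1 among the 7, had H3K4me3 peaks in early libraries alone, so their difference could only be positive. No conclusion is drawn from setting these medians side by side. Within experiments the median of the 7 genes was 40.7 points in experiment 1 and 14.8 points in experiment 2. For all 11215 genes these medians were 1.05 and 3.24 points. In experiment 2, 6 members were higher early and 1, Uhrf1, was lower (-12.7 points).

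A peak in both leptonema libraries and in 0 of the 6 later libraries was found for 2.19% of all genes and for 0 of the 8 methylation genes. Among the partners 1 gene had this pattern, Kdm1b, which encodes a histone H3K4 demethylase needed for maternal methylation imprints. It was called in 2 of 2 leptonema and 2 of 2 zygonema libraries, with a mean percentile of 65.2 in the 4 early libraries and 0 in the 6 later ones. Its p was 0.00476, the smallest this exact permutation test can give, and its adjusted p was 0.0849. Kdm1b was picked by its calls in these same libraries, so its p is no separate support for the pattern. Setd2, another partner, had the same p and adjusted p in the other direction, lower in the early libraries (-4.33 points).

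Genes whose width percentiles were most like those of a member over the 20 lists were named by Pearson's r, as a description. Every r is over the same 20 libraries, which also differ in antibody and list length. Adarb1 (r = 0.97) was most like Dnmt1, Rhobtb3 (r = 0.97) most like Dnmt3a and Ccnj (r = 0.95) most like Dnmt3b, followed by Acsl1 (0.97), Bicdl1 (0.97) and Zfp428 (0.95) in the same order. Cse1l (0.95) and Dgcr2 (0.93) were most like Uhrf1, Dbndd2 (0.97) and Fbxl16 (0.96) most like Tet2, and Cobll1 (0.98) and Zfpm1 (0.97) most like Tet3. For Tet1, whose value rests mainly on 1 H3K4me2/3 library, 1520401A03Rik and 1700007K13Rik had r above 0.99, each with a peak in 1 list.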

How the data were processed

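The deposited files were peak lists (chromosome, start and end of each peak), 1 per library, with no score, signal or read count. The authors aligned reads to mm10 with BWA mem 0.7.12 and called broad peaks per library with MACS2 2.1.2 against input of the same stage. This is stated for H3K4me3, and the control used for H3K9ac is not given in the sources used here. The antibody tag of the H3K9ac samples reads H3K4me3, but their titles and the catalogue number are those of H3K9ac. Of 51 samples, 31 (input DNA, controls without a specific antibody, and a survey of marks in nuclei not sorted by stage, H3K9ac and the Abcam antibody included) were not analysed here. Depth per library is unknown, so no interval was computed, and nothing in the labels ties a library to separate animals, so p-values measure the spread between libraries, which may be technical.

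Lists hold chromosomes 1 to 19. For each gene the widest peak at any protein-coding TSS window was taken. Windows, calls and exact permutation tests were computed in Python 3.11.15 (numpy 2.4.6), with the tests checked on simulated data, and plotted with matplotlib 3.10.9. The threshold was 0.05. Alternatives were TSS windows of 1000 bp, an overlap of 250 bp, all transcripts, lists cut to their widest peaks at equal length, log2 of the width plus 100 bp, calls in place of widths, all genes, the experiment as a block, and each library left out. Leaving out libraries for the stage test and for the calls per stage, and the values within each experiment, were added after the data were seen. All 8 members were named, further genes by lists of partners and markers, and by the test threshold or the leptonema pattern within them. The members and lists were chosen with earlier results of these data known.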

Additional observations from a re-analysis of the deposited data

How the results depend on the processing

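After adjustment, 0 genes passed either test in the main analysis and under every alternative run, the replicate block among them (0 genes). The tests can give few distinct small p-values, and too few genes reached them for any to pass, so these zeros say nothing about stability. The labels do not say whether libraries with the same experiment number were prepared together. The deviations of experiment 1 from the stage means correlated between -0.151 and 0.258 over 10 pairs of stages, with 2 of 10 over 0.1. The highest value was that of late pachynema with diplonema. These correlations cannot show whether the libraries were paired. Differences of the 7 tested members between leptonema with zygonema and later stages kept their direction in 107 of 108 values, leaving out the block and the gene filter, which cannot change them. The exception was Uhrf1 with lists of equal size (-4.63 points), and the cause was not tested. Sizes moved more, with equal lists lowering Dnmt1 from 44.2 to 17.7 points (exact permutation p = 0.162) and Dnmt3b from 37.7 to 9.92 points. The unadjusted p-values also depended on the measure. With calls in place of widths the exact permutation p was 0.2 for each of Dnmt1, Dnmt3a and Dnmt3b. With log2 of the width it was 0.0524, 0.0381 and 0.0476 in that order.

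Counts of members called in both libraries moved more. With equal list sizes zygonema and diplonema fell to 0, for which no share over all genes is at hand. With an overlap of 250 bp late pachynema fell to 0, again without such a share at hand. With a peak in either library counted, the members numbered 3 for early pachynema and 6 for each of the 2 last stages. Over all genes the shares with a peak in either library were 33.9% (early pachynema), 40.4% (late pachynema) and 46.1% (diplonema). Leaving out 1 library gave counts from 1 to 3 for early pachynema and from 1 to 6 for late pachynema and likewise for diplonema, the higher counts being those without early pachynema replicate 2, late pachynema replicate 1 and diplonema replicate 1. H3K9ac member calls fell from 10 to 1 with equal lists, since the shortest list held 516 peaks, while H3K4me2/3 calls stayed within 1.5 times under every alternative run. Calls without read counts cannot separate absence of a mark from a mark below the caller's threshold, and depth per library is unknown.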

Other observations

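Inside the same genes but over 500 bp from every protein-coding TSS of the gene, 9 further sites carried a peak, in 5 of the 8 genes. Of the 26 peaks at these sites, 11 were in leptonema libraries, 14 in zygonema, 1 in early pachynema and 0 in late pachynema and diplonema. Leaving out peaks at a protein-coding TSS of any gene, 24 of 25 peaks in the members were in leptonema or zygonema, as were 70.3% of the 44610 such peaks over all protein-coding genes. No test was made, and nothing particular to these genes is drawn from the counts. The study reports H3K4me3 and H3K9ac at recombination hotspots, where PRDM9 marks sites of DNA breaks, as highest in zygonema and gone by early pachynema. Whether any of the 9 sites is such a hotspot was not tested.

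The sites with the most peaks lay in Dnmt3b. At chr2:153661013-153662930, overlapping an exon, H3K4me3 peaks spanned 1305 and 1310 bp in the zygonema libraries of experiments 1 and 2, wider than the 737 and 867 bp peaks at the gene's promoter in the same libraries. H3K4me2/3 spanned 1808 bp and H3K9ac 1878 bp there in zygonema, and no list from early pachynema on had a peak. A further exonic site at chr2:153677218-153678683 had H3K4me3 peaks of 1068 and 749 bp in zygonema and one of 394 bp in leptonema of experiment 2. A non-coding transcript of the gene starts within 500 bp of 1 site in Uhrf1 and 1 in Tet1. In Uhrf1, this exonic site at chr17:56317463-56318438 had a zygonema H3K4me3 peak of 788 bp in experiment 1 and none in experiment 2. Tet1 had 2 exonic sites, at chr10:62812496-62813216 and, near the non-coding start, chr10:62865050-62865846, with H3K4me2/3 peaks in leptonema and zygonema alone. The site in Dnmt3l, with 1 H3K4me2/3 peak of 564 bp in leptonema, was within 500 bp of a TSS of Aire. The 3 sites in Dnmt3a were intronic, and 1 of them had an H3K4me3 peak, of 605 bp in leptonema of experiment 2.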
